A study of Mus musculus with 12 samples.

Results

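The pooled effect of dexamethasone (Dex, a synthetic glucocorticoid) was measured by RNA sequencing of mouse Th17 cells, the helper T cells that make interleukin-17. It compares the 6 libraries that received Dex with the 6 that did not, with the presence of interleukin-1 beta (IL-1B) as a covariate, and so gives the mean Dex effect over both backgrounds. All 12 libraries of the series entered this comparison, because each was made with or without Dex and with or without IL-1B. Wild-type naive CD4+ T cells had been polarised in vitro for 72 h on plate-bound antibodies to CD3 and CD28. The medium held TGF-B and IL-6, with antibodies against IFN-g and IL-4, and these conditions were common to every library. The 4 groups, of 3 libraries each, were untreated, Dex alone, IL-1B alone, and Dex with IL-1B, with treatment for the last 4 h. The labels give no Dex dose, and they name neither the age nor the number of mice. They do not say that the 3 libraries of a group came from separate cultures, so all p-values reflect only the spread among these libraries, which may be technical.

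Dexamethasone binds the glucocorticoid receptor, encoded by Nr3c1, which then enters the nucleus. There it raises transcription of some genes by binding DNA, and lowers that of others, many of them targets of the inflammatory factors NF-kB and AP-1. In T cells glucocorticoids are known as immunosuppressants, while IL-1B is known as a cytokine that promotes the Th17 programme and signals to NF-kB. Genes below are taken in the order of receptor and induced genes, repressed cytokine and chemokine genes, signalling genes and cell identity genes.

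Levels are CPM, read counts per gene divided by the library's TMM-scaled total and multiplied by 1000000, and effects are log2 changes ± SE from the additive model, with 6 libraries a side. Calls are genes whose adjusted p was under 0.05 in edgeR's quasi-likelihood test, with Benjamini-Hochberg adjustment over the 13821 genes tested. Libraries held 16904106 to 30445734 counted reads. IL-1B 2 and Dex+IL-1B 1 stood apart, with 14036 and 18550.0 CPM in 3 genes that overlap ribosomal RNA repeats, against 2328 to 5644 CPM in the other 10 libraries. Both stood apart in the principal components as well, whose first component took 35.4% of the variance and separated the libraries with IL-1B from those without. IL-1B 2 and Dex+IL-1B 1 lie on opposite sides of the Dex comparison. The second component took 16.7% of the variance. Its highest score was that of untreated 1, at 39, against 12.4 for untreated 2 and -3.01 for untreated 3.

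Dex changed 222 genes in the pooled comparison, 1.61% of those tested. Of these, 147 rose (1.06%) and 75 fell (0.543%), and 218 of the 222 were protein coding. Most effects were small. The median log2 change was 0.58 for the rises and -0.45 for the falls, and 34 genes changed at least 2-fold, of which 30 rose and 4 fell. The 4 falls were Ccl3, Sema6d, Ccl20 and Ptpn5. The median log2 change over all genes tested was 0.0, and 49.9% of their estimates were positive. With no IL-1B covariate 54 genes were called, and 11 passed a test against a 1.5-fold change. Without both libraries that stood apart, 710 genes were called, of which 215 were among the 222. Leaving out 1 library at a time gave counts from 119 without untreated 2 to 404 without Dex+IL-1B 1.

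The 6 libraries with Dex did not overlap the 6 without it for 81 of the 222 called genes, against 113 (0.818%) of all genes tested. Levels of many of these genes also differed between the backgrounds, so overlap was read within each background as well. The 3 libraries with Dex stood clear of the 3 without it, in the same direction in both backgrounds, for 186 of the 222, against 364 (2.63%) of all genes. Genes named below for the largest changes or the smallest p were chosen among those 186, so their separation within each background was set by that choice.

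Neither the receptor gene nor its partners gave a call. Nr3c1 had 57.0, 53.2 and 49.9 CPM in untreated 1, 2 and 3, 61.3, 59.6 and 62.5 CPM with Dex, 40.1, 52.7 and 38.7 CPM with IL-1B and 44.0, 52.1 and 43.2 CPM with both. It was not called (log2 change 0.14 ± 0.08, adjusted p = 0.538 in edgeR), though without both libraries high in rRNA-overlapping genes its adjusted p was 0.0466, and the groups given IL-1B overlapped. Without both libraries that stood apart it was called, at an estimate of 0.22 and an adjusted p of 0.0466. Of 16 tested genes of the receptor's machinery, which holds its chaperones, coactivators, corepressors and drug efflux pumps, 0 rose and 0 fell at this threshold. Their median log2 change was 0.005. Of the 16, 0 had an unadjusted p under 0.05, against 11.8% of all genes tested, and 0 were called by DESeq2 or limma-voom.

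Genes known to be induced by glucocorticoids, mostly from other cells, were next. Of 26 tested, 9 rose and 0 fell, against 1.06% and 0.543% of all genes tested, with a median log2 change of 0.424 against 0.0. The same shares over all genes are the background for each list below. Counts of only a few called members are not read as a result about a list. The 9 were Pdcd4, Klf9, Fkbp5, Per1, Mt2, Dusp1, Tsc22d3, Pik3ip1 and Per2. Another 12 had positive estimates without a call and 5 had negative ones.

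Pdcd4, a tumour suppressor that inhibits translation initiation (chr19:53892231-53929860, GRCm38), had the firmest rise among these. It had 149.9, 143 and 127 CPM in untreated 1, 2 and 3, 352, 304 and 343 CPM with Dex, 96.0, 118 and 96.3 CPM with IL-1B and 366, 332 and 334 CPM with both. Every library with Dex was above every library without it, by a wide margin. The pooled log2 change was 1.49 ± 0.10, a 2.81-fold rise, with an adjusted p of 9.49e-07 in edgeR. This call held under all 22 alternatives, with estimates from 1.43 to 1.55.

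Klf9, a zinc finger transcription factor known as a direct target of the receptor (chr19:23141226-23168134), had 18.8, 17.9 and 16.7 CPM in untreated 1, 2 and 3, 44.3, 49.6 and 47.6 CPM with Dex, 17.7, 19.3 and 17.4 CPM with IL-1B and 29.7, 34.2 and 33.2 CPM with both. The 6 libraries with Dex were again clear of the rest, and those with both agents sat below those with Dex alone. Klf9 rose by 1.13 ± 0.10 (adjusted p = 1.65e-05 in edgeR). Fkbp5, a co-chaperone that feeds back on the receptor (chr17:28399094-28517527), had 94.4, 99.5 and 100.1 CPM in untreated 1, 2 and 3, 209, 243 and 188 CPM with Dex, 118, 114 and 112 CPM with IL-1B and 201, 182 and 171 CPM with both. No library with Dex fell as low as any without it. Its log2 change was 0.91 ± 0.09 (adjusted p = 3.89e-05 in edgeR).

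Tsc22d3, which encodes the anti-inflammatory protein GILZ (chrX:140539528-140600659), had a wide spread. It had 46.5, 45.8 and 33.0 CPM in untreated 1, 2 and 3, 82.9, 153 and 98.1 CPM with Dex, 15.04, 4.48 and 18.6 CPM with IL-1B and 25.7, 79.1 and 57.5 CPM with both. Within each background the Dex libraries were higher, yet Dex+IL-1B 1 lay below all 3 untreated libraries, and the lowest value of all was in IL-1B 2. The estimate was 1.73 ± 0.35 (adjusted p = 0.0322 in edgeR). The call was lost in 9 of the 12 fits that left out 1 library, with an adjusted p of up to 0.0865.

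The clock repressor Per1 rose by 0.56 ± 0.10 (adjusted p = 0.00752 in edgeR), from 71.0, 77.3 and 76.5 CPM in the untreated libraries to 99.4, 118 and 117 CPM with Dex alone, and from 65.3, 59.0 and 90.1 CPM with IL-1B to 87.1, 111 and 115 CPM with both. Within each background the sides overlapped only where IL-1B 3 lay above Dex+IL-1B 1. Per2, its paralogue, rose by 0.75 ± 0.18 at an adjusted p of 0.0472 and lost the call in 9 of the 12 leave-one-out fits in edgeR. Of 16 tested clock genes these 2 rose and 0 fell, 14 had positive estimates, and the median was 0.216. Mt2, a metal-binding metallothionein, rose by 1.17 ± 0.21 (adjusted p = 0.0137 in edgeR). Its neighbour in function Mt1, named after its value was seen, was not called, at 0.76 ± 0.20 and an adjusted p of 0.107 in edgeR.

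Dusp1, a phosphatase that switches off MAP kinases and a long-known glucocorticoid target, had 16.3, 17.0 and 14.9 CPM in untreated 1, 2 and 3, 20.0, 19.7 and 23.3 CPM with Dex, 14.8, 13.7 and 17.5 CPM with IL-1B and 17.2, 23.7 and 23.8 CPM with both. The sides were separate without IL-1B, while Dex+IL-1B 1 lay just below IL-1B 3. Dusp1 rose by 0.44 ± 0.10 (adjusted p = 0.0315 in edgeR), and 8 of the 12 leave-one-out fits lost the call, with an adjusted p of up to 0.124. Dusp2, a nuclear phosphatase of the same family, rose by 0.48 ± 0.08 (adjusted p = 0.0041 in edgeR). Of 10 tested MAP kinase phosphatases these 2 rose, 0 fell, and the median was 0.221.

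**Figure D1:**
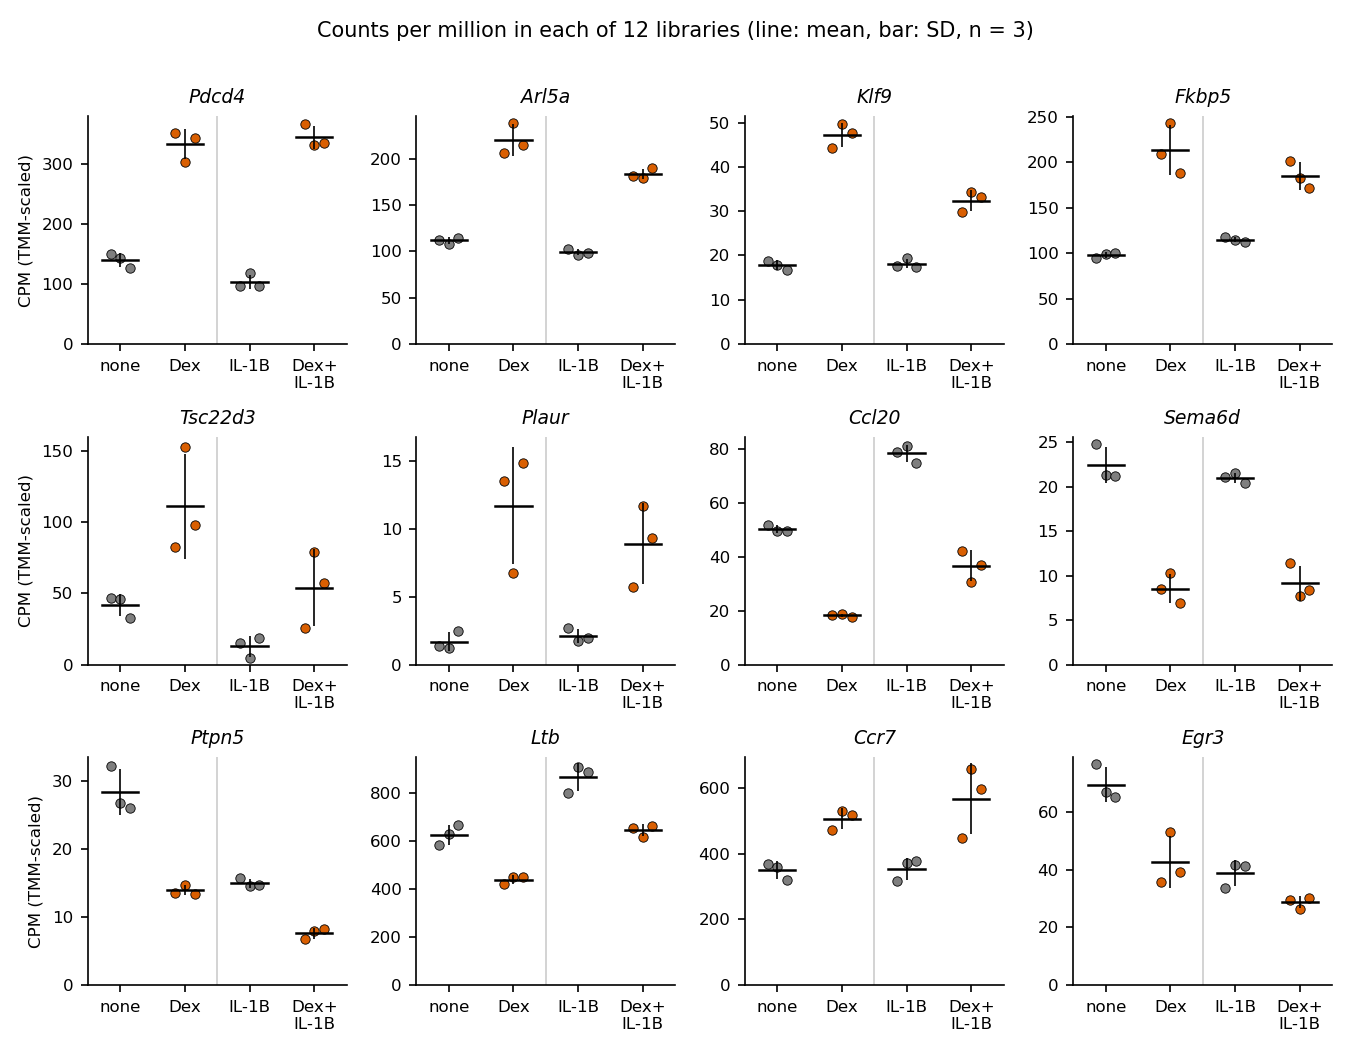
CPM values (TMM-scaled) of 12 genes in each of the 12 libraries; points are libraries (orange with Dex, grey without), black lines are group means and vertical bars are SD (n = 3). Pdcd4, Arl5a, Klf9 and Fkbp5 are higher in all 6 libraries with Dex, Sema6d is lower in all 6, and Tsc22d3 and Ltb shift within each background while the ranges across backgrounds overlap.

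Promoter letters were set beside these effects for called genes whose window held a match. Windows run from 250 bases before to 50 after a gene's start in RefSeq for GRCm38.p6, and both strands were searched for the glucocorticoid response element GNACANNNTGTNC and for the NF-kB motif. Of the 147 genes that rose, 111 matched a window, and of the 75 that fell, 59 did. The response element was in 1 of 149 windows of genes that rose (0.671%), in 1 of 89 of genes that fell (1.12%), in 0.313% of windows of genes tested and in 0.475% of all windows. The NF-kB motif was in 8.05% of the windows of genes that rose, 14.6% of those of genes that fell, 7.11% of those of genes tested and 5.8% of all windows. A match is a run of letters and no measured site. The 3 windows below are those of named, called genes with a match and the smallest adjusted p for their motif, all on the + strand. For the NF-kB motif only genes that fell were considered, though 11 genes that rose and 11 that fell held a match. Capitals mark the response element match in Txnip (chr3:96557707-96558006) and the NF-kB match in Ccl20 (chr1:83116516-83116815) and Ltb (chr17:35194257-35194556).
Txnip: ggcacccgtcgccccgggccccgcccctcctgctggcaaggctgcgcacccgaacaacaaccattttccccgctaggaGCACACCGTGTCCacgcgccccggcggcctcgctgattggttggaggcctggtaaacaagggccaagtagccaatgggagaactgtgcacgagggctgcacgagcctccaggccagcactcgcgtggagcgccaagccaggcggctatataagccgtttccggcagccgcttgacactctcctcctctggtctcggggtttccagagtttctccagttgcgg
Ccl20: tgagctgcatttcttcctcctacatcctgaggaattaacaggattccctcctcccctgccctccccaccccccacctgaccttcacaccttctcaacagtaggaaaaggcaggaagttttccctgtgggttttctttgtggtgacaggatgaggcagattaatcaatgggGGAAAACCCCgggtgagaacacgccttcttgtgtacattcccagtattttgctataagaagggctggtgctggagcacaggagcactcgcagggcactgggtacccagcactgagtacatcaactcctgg
Ltb: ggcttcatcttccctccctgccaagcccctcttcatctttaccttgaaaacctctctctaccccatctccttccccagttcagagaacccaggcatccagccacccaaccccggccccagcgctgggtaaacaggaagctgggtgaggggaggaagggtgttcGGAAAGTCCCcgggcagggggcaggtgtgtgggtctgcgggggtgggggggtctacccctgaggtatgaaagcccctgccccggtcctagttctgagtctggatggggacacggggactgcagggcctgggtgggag
The match in Txnip starts 172 bases before the gene start, that in Ccl20 80 bases before and that in Ltb 87 bases before. Those in Ccl20 and Ltb are on the opposite strand, and neither of their windows holds the response element. Jund, which fell, held the other response element match, and Egr2, which fell, held an NF-kB match.

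Txnip, which binds and inhibits thioredoxin and limits glucose uptake, is the gene of the first window. It had 88.8, 75.9 and 52.6 CPM in untreated 1, 2 and 3, 122, 216 and 139 CPM with Dex, 36.0, 17.4 and 44.4 CPM with IL-1B and 77.96, 89.3 and 90.3 CPM with both. Values were lower in the groups given IL-1B, and Dex libraries were higher within each background, so the ranges across backgrounds overlapped. Txnip rose by 1.26 ± 0.22 (adjusted p = 0.0107 in edgeR).

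Among the largest rises, most were of genes outside the immune signalling lists. Plaur, the urokinase receptor, which binds plasminogen activator at the cell surface (chr7:24462484-24475968), had 1.35, 1.21 and 2.49 CPM in untreated 1, 2 and 3, 13.6, 6.78 and 14.8 CPM with Dex, 2.71, 1.71 and 1.99 CPM with IL-1B and 5.74, 11.7 and 9.36 CPM with both. All 6 Dex libraries were above all 6 others, though they spread widely among themselves. Its log2 change was 2.45 ± 0.27, a 5.48-fold rise (adjusted p = 0.000234 in edgeR), and the call held under all 22 alternatives.

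Arl5a, a small ARF-like GTPase of the trans-Golgi (chr2:52397951-52424901), gave the smallest p of all genes. It had 113, 108 and 115 CPM in untreated 1, 2 and 3, 207, 239 and 215 CPM with Dex, 102, 96.7 and 98.8 CPM with IL-1B and 181, 179 and 190.3 CPM with both. The replicates lay close to each other and the sides were far apart. It rose by 0.93 ± 0.05, or 1.91-fold, with an adjusted p of 4.69e-07 in edgeR. Gzf1, a zinc finger transcription factor, had 37.4, 46.4 and 44.9 CPM in untreated 1, 2 and 3, 75.8, 89.6 and 80.1 CPM with Dex, 47.7, 49.6 and 49.96 CPM with IL-1B and 76.0, 92.2 and 88.9 CPM with both. Its 6 Dex libraries were also all above the other 6. The rise was 0.87 ± 0.07 (adjusted p = 1.47e-05 in edgeR).

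The endocytic adaptor gene Ston1 rose by 1.40 ± 0.15 (adjusted p = 0.000118), and Fut4, a fucosyltransferase that makes carbohydrate epitopes, by 1.25 ± 0.12 (adjusted p = 3.31e-05 in edgeR). Ston1 ran from 6.25 to 8.80 CPM without Dex and from 14.9 to 31.8 CPM with it. Fut4 ran from 5.26 to 7.56 CPM without Dex and from 11.2 to 16.1 CPM with it. Neither gene's sides overlapped.

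The giant muscle protein gene Neb rose by 1.19 ± 0.14 (adjusted p = 0.000522 in edgeR), and the prion protein gene Prnp by 1.18 ± 0.18 (adjusted p = 0.00573 in edgeR). Dysf, which encodes the membrane-repair protein dysferlin, rose by 1.15 ± 0.20 (adjusted p = 0.00598 in edgeR). Gpnmb, a transmembrane glycoprotein, rose by 1.13 ± 0.13 (adjusted p = 0.00017 in edgeR). For these genes Dex libraries were above the others within each background, and such separation was a condition of naming them. Exons of Ston1, Txnip, Neb, Mt2 and Dysf overlap genes on the opposite strand, and those of Prnp overlap Prn on the same strand, so some of their reads could belong to those genes, since no strand setting is given. The same limit holds, among genes described elsewhere, for Dusp1, Jund, Lcp2, Ccnd3, Hmgcs1, Il6ra, Pik3ip1, Tspan2, Tgtp1, Csf2, Il21 and Foxp3.

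The calls also held 17 genes with a mean under 5 CPM on the higher side. One of them, named after its values were seen, was Gldc, a mitochondrial glycine-cleavage enzyme, with 0 to 0.293 CPM without Dex and 1.02 to 2.77 CPM with it. Its log2 change was 3.11 ± 0.44 (adjusted p = 0.00147 in edgeR).

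**Figure D2:**
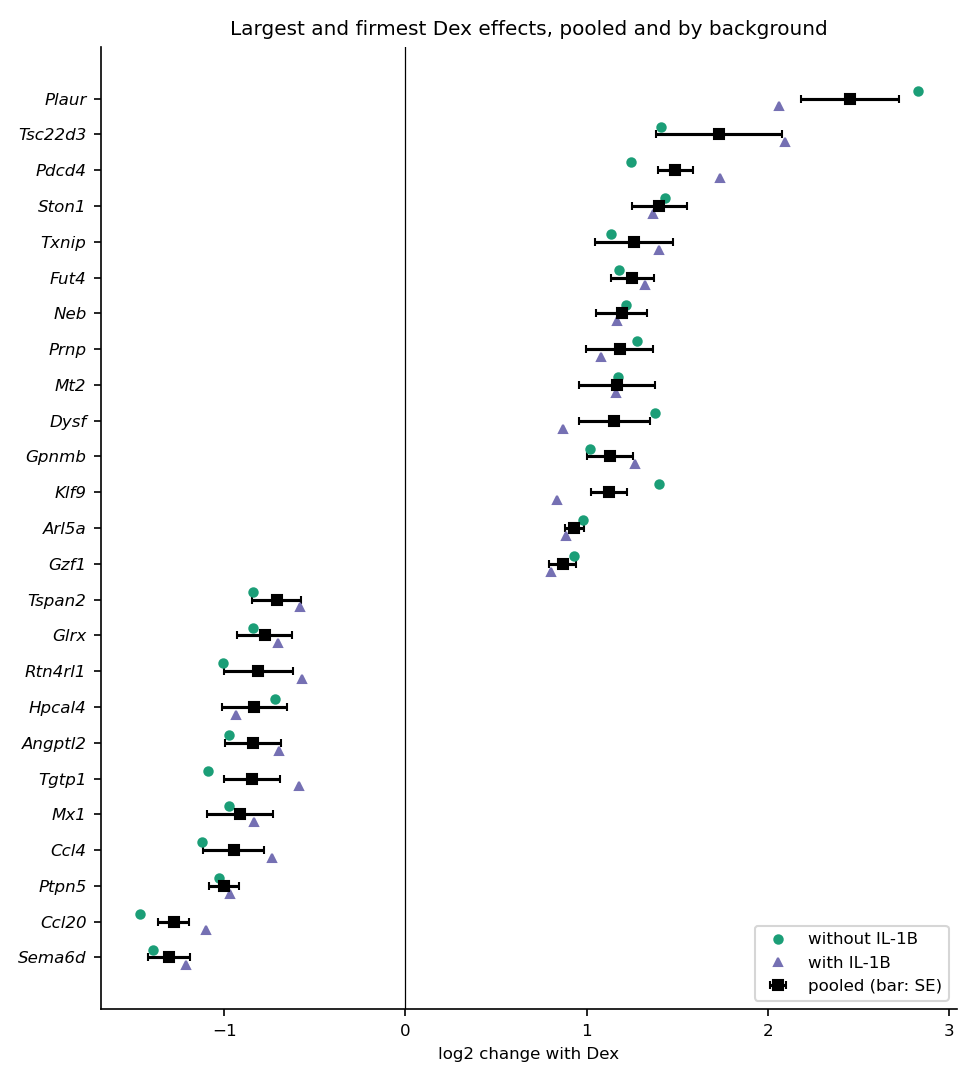
Pooled log2 change with Dex (squares, bars are SE) of the largest rises, the largest falls and the smallest p, with the separate estimates without IL-1B (circles) and with it (triangles). Genes were chosen among calls with at least 5 CPM on the higher side and no overlap within either background. Rises run from 0.87 for Gzf1 to 2.45 for Plaur and falls from -0.71 for Tspan2 to -1.30 for Sema6d. The separate estimates have the sign of the pooled one for each gene shown, which that choice largely sets.

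Every call among chemokine and cytokine genes was a fall. Of 31 tested, 0 rose and 6 fell, against 1.06% and 0.543% of all genes tested, and the median log2 change was -0.38 against 0.0. Those 6 were Ccl20, Ltb, Ccl4, Tnfsf11, Ccl3 and Cd40lg. With estimates only, 24 of the 31 were negative and 7 positive.

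Ccl20, the ligand of CCR6 and a chemokine that Th17 cells secrete (chr1:83116766-83119167), had 51.9, 49.5 and 49.4 CPM in untreated 1, 2 and 3, 18.4, 18.6 and 17.7 CPM with Dex, 79.0, 81.0 and 74.9 CPM with IL-1B and 42.2, 30.7 and 37.0 CPM with both. The Dex libraries were lower within each background by more than the replicate spread, and the values with IL-1B were the highest. All 6 Dex libraries lay below all 6 others. Ccl20 fell by 1.28 ± 0.09 on the log2 scale, a 2.43-fold fall (adjusted p = 1.08e-06 in edgeR), and the call held under all 22 alternatives.

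Ltb, which encodes a membrane subunit of lymphotoxin (chr17:35194439-35196320), had 580.2, 629 and 663 CPM in untreated 1, 2 and 3, 419, 449 and 448 CPM with Dex, 799, 908 and 887 CPM with IL-1B and 653, 614 and 661 CPM with both. Across backgrounds the Dex+IL-1B libraries overlapped the untreated ones, while within each background the sides were separate. It fell by 0.47 ± 0.06 on the log2 scale (adjusted p = 0.000475 in edgeR).

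Ccl3 and Ccl4, neighbouring genes of inflammatory chemokines, fell as well. Ccl4 had 15.1, 13.7 and 13.1 CPM in untreated 1, 2 and 3, 7.08, 7.18 and 5.04 CPM with Dex, 7.69, 4.31 and 4.45 CPM with IL-1B and 2.52, 3.20 and 4.09 CPM with both. Dex+IL-1B libraries were the lowest overall. Ccl4 fell by 0.95 ± 0.17 on the log2 scale (adjusted p = 0.00781 in edgeR). Ccl3 ran from 2.27 to 6.51 CPM without Dex and from 0.852 to 2.40 CPM with it, and fell by 1.45 ± 0.29 (adjusted p = 0.0178 in edgeR). The Ccl3 ranges overlapped through 1 library, Dex+IL-1B 1, and 3 of the 12 leave-one-out fits lost its call, with an adjusted p of up to 0.0645. Tnfsf11, which encodes RANK ligand, fell by 0.60 ± 0.12 (adjusted p = 0.016 in edgeR), and Cd40lg, a B cell help signal, named to complete the count, by 0.43 ± 0.09 (adjusted p = 0.0238 in edgeR).

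Among other falls, Sema6d, a membrane semaphorin (chr2:124089969-124667770), had 24.8, 21.3 and 21.2 CPM in untreated 1, 2 and 3, 8.49, 10.3 and 6.90 CPM with Dex, 21.1, 21.6 and 20.5 CPM with IL-1B and 11.4, 7.67 and 8.34 CPM with both. Values with and without IL-1B were close, and every Dex library was below every other. Sema6d fell by 1.30 ± 0.11 (adjusted p = 1.65e-05 in edgeR), and the call held under all 22 alternatives. Ptpn5, a tyrosine phosphatase best known in neurons (chr7:47077795-47133684), had 32.2, 26.7 and 26.0 CPM in untreated 1, 2 and 3, 13.6, 14.7 and 13.4 CPM with Dex, 15.6, 14.5 and 14.6 CPM with IL-1B and 6.69, 7.93 and 8.18 CPM with both. Dex 2 lay among the IL-1B libraries, and within each background the sides were separate. It fell by 1.00 ± 0.08 on the log2 scale, or 2.00-fold (adjusted p = 1.26e-05 in edgeR).

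Genes known to respond to interferon gave 3 falls and 0 rises of 23 tested (0.543% and 1.06% over all genes), with a median of -0.037. Tgtp1, an interferon-induced GTPase, fell by 0.85 ± 0.15, Mx1, an antiviral GTPase, by 0.91 ± 0.18, and Ifih1, a sensor of double-stranded RNA, by 0.51 ± 0.10 (adjusted p = 0.0113, 0.0188 and 0.0155 in edgeR). Tgtp1 has a near-identical copy, so its reads could be split. Mx1 lost its call in 4 of the 12 leave-one-out fits, with an adjusted p of up to 0.0598.

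Further falls of this size were in Angptl2, a secreted angiopoietin-like protein, at -0.84 ± 0.16 (adjusted p = 0.0146), and Glrx, the redox enzyme glutaredoxin, at -0.78 ± 0.15 (adjusted p = 0.018 in edgeR). Hpcal4, a neuronal calcium sensor, was at -0.83 ± 0.18 (adjusted p = 0.0273), Rtn4rl1, a Nogo receptor relative, at -0.81 ± 0.19 (adjusted p = 0.0478), and Tspan2, a tetraspanin, at -0.71 ± 0.14 (adjusted p = 0.0143 in edgeR). Angptl2 and Glrx had their highest values in the untreated libraries. The calls of Glrx, Hpcal4 and Rtn4rl1 were lost in 2, 5 and 9 of the 12 leave-one-out fits.

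Lists of NF-kB target genes and of AP-1 and immediate early genes held few calls. Of 24 tested NF-kB target genes 0 rose and 2 fell (1.06% and 0.543% over all genes), with a median of -0.182 and 21 negative estimates. Those 2 were Ccl20, a cytokine list member too, and Nfkbie, an inhibitor of NF-kB, at -0.38 ± 0.09 (adjusted p = 0.0468 in edgeR), whose call was lost in 10 of the 12 leave-one-out fits. The feedback inhibitor gene Nfkbia had 180.1, 173 and 143 CPM in untreated 1, 2 and 3, 114, 130.1 and 106 CPM with Dex, 343, 423 and 353 CPM with IL-1B and 367, 388 and 431 CPM with both. It was lower with Dex in the untreated background and overlapped with IL-1B. The pooled estimate was -0.21 ± 0.11 (adjusted p = 0.492 in edgeR). Tnfaip3, another inhibitor, was at 0.16 ± 0.10 (adjusted p = 0.612), and Nfkbiz, a nuclear NF-kB cofactor used by Th17 cells, at 0.57 ± 0.15 (adjusted p = 0.0907 in edgeR). DESeq2 called Nfkbiz, at an adjusted p of 0.0128, and edgeR called it without untreated 1 and without Dex 2, at 0.0144 and 0.0320.

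In the AP-1 and immediate early list, 3 of 20 tested fell and 0 rose (0.543% and 1.06% over all genes), and the median was -0.038. Egr3, an early growth response factor induced by T cell receptor signals, had 76.6, 66.9 and 65.1 CPM in untreated 1, 2 and 3, 35.9, 53.0 and 39.2 CPM with Dex, 33.8, 41.8 and 41.3 CPM with IL-1B and 29.5, 26.4 and 30.3 CPM with both. Dex libraries were lower within each background, and IL-1B libraries were lower than untreated ones. Egr3 fell by 0.58 ± 0.10 (adjusted p = 0.00675 in edgeR), Egr2, its relative, by 0.45 ± 0.09 (adjusted p = 0.0149), and Jund, an AP-1 subunit, by 0.28 ± 0.06 (adjusted p = 0.0279). The Jund call was lost in 7 of the 12 leave-one-out fits and that of Egr2 in 1, without Dex 1, at an adjusted p just over 0.05.

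Of 22 T cell receptor signalling genes 1 rose and 3 fell, with a median of -0.1. Ptpn22, a phosphatase that restrains receptor signals, rose by 0.67 ± 0.07 (adjusted p = 0.000102 in edgeR). It had 161, 173 and 153 CPM in untreated 1, 2 and 3, 236, 248 and 255 CPM with Dex, 84.1, 83.5 and 85.0 CPM with IL-1B and 118, 159 and 144 CPM with both, with lower values in the groups given IL-1B and higher values with Dex, without overlap, in each background. The adaptor Lcp2 fell by 0.40 ± 0.07, the inhibitory surface protein Cd5 by 0.34 ± 0.08 and the transcription factor Nfatc2 by 0.28 ± 0.06 (adjusted p = 0.0113, 0.0373 and 0.0384 in edgeR). The calls of Cd5 and Nfatc2 were lost in 6 and 8 of the 12 leave-one-out fits.

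Receptors and migration genes moved in both directions. Of 27 tested cytokine receptor genes 2 rose and 0 fell, with a median of -0.041. They were Il10ra, the receptor chain of the inhibitory cytokine IL-10, at 0.48 ± 0.11, and Il6ra, the receptor of the Th17-inducing cytokine IL-6, at 0.31 ± 0.07 (adjusted p = 0.0403 and 0.0424 in edgeR). Each of these 2 calls was lost in 10 of the 12 leave-one-out fits. The IL-7 receptor gene Il7r, a glucocorticoid target in T cells, was not called, at 0.22 ± 0.16 (adjusted p = 0.639 in edgeR).

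Ccr7, the receptor that guides T cells to lymph nodes, had 369.6, 361 and 319 CPM in untreated 1, 2 and 3, 471, 530.0 and 519.7 CPM with Dex, 316, 371 and 377 CPM with IL-1B and 448, 659 and 598 CPM with both. Dex libraries were above the rest in each background. Ccr7 rose by 0.61 ± 0.09 (adjusted p = 0.00207 in edgeR). It was the 1 call among 15 naive and homing genes, of median -0.045. With Plaur and Sema6d it made 2 rises and 1 fall among 22 adhesion and migration genes, of median -0.052.

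In the PI3K and FOXO list 2 of 17 rose and 0 fell, with a median of 0.001. They were Pik3cg, a catalytic subunit, at 0.54 ± 0.11, and Pik3ip1, an inhibitor of the kinase, at 0.94 ± 0.21 (adjusted p = 0.025 and 0.0472 in edgeR), and their calls were lost in 7 and 10 of the 12 leave-one-out fits. Ccnd3, a cyclin of the G1 phase, fell by 0.42 ± 0.07 (adjusted p = 0.00566 in edgeR), the 1 call among 9 D-type cyclins and CDK inhibitors. Hmgcs1, an early enzyme of cholesterol synthesis, fell by 0.29 ± 0.07 (adjusted p = 0.0315 in edgeR), the 1 call among 19 genes of that pathway, and its call was lost in 8 of the 12 leave-one-out fits.

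**Figure D3:**
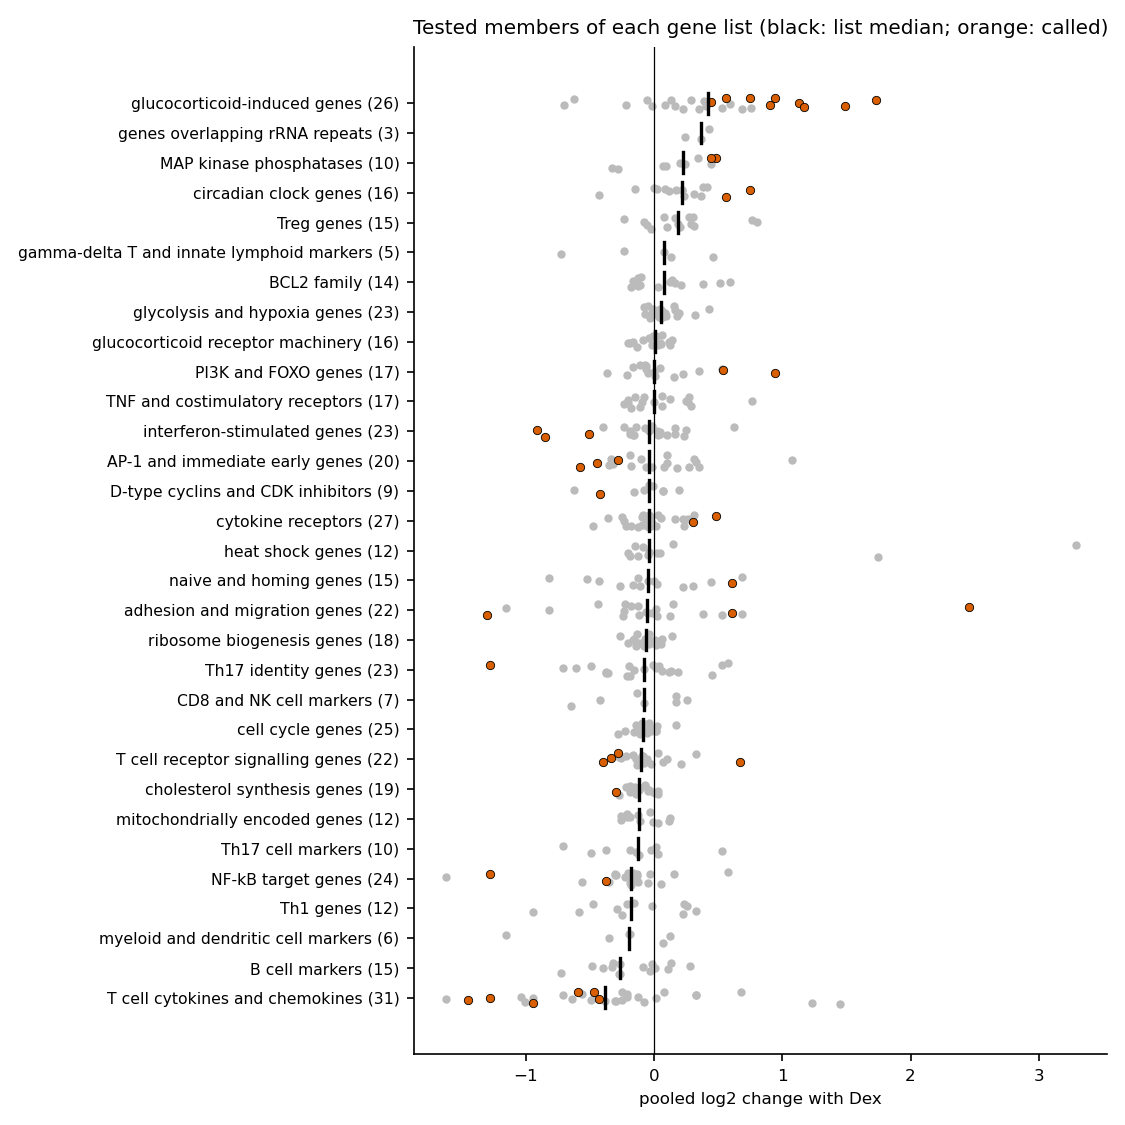
Pooled log2 change with Dex of the tested members of each gene list (points, orange where called at an adjusted p under 0.05), with list medians as black bars and the number tested in parentheses. Glucocorticoid-induced genes have the highest median, 0.424, and T cell cytokines and chemokines the lowest, -0.38, and most members of most lists lie near 0 without a call.

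Genes of Th17 identity gave 0 rises and 1 fall, Ccl20, of 23 tested, with a median of -0.079. The signature cytokine gene Il17a had 31.7, 21.4 and 15.8 CPM in untreated 1, 2 and 3, 16.1, 8.96 and 15.9 CPM with Dex, 136, 117 and 136 CPM with IL-1B and 152, 77.5 and 95.6 CPM with both. Values with IL-1B were higher in every library, and within each background the sides overlapped. The pooled estimate was -0.49 ± 0.21 (adjusted p = 0.39 in edgeR). Il17f, its partner, had 171, 104 and 85.7 CPM in untreated 1, 2 and 3, 43.7, 55.3 and 50.1 CPM with Dex, 472, 477 and 507 CPM with IL-1B and 533, 320.1 and 441 CPM with both. It was lower with Dex in the untreated background without overlap, and overlapped with IL-1B. Its pooled estimate was -0.71 ± 0.23 (adjusted p = 0.201 in edgeR), and the mean of the 2 contrasts in the 4-group model called it, at an estimate of -0.72 and an adjusted p of 0.0482. Taken alone, the contrast without IL-1B also called Il17f, at -1.27 ± 0.23 (adjusted p = 0.0350 in edgeR). The contrast with IL-1B did not, at -0.17 ± 0.23 (adjusted p = 0.917 in edgeR). The difference between these 2 estimates was not called (adjusted p = 0.989 in edgeR).

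Il21, a helper T cell cytokine gene, was at -0.21 ± 0.06 (adjusted p = 0.0759 in edgeR). Il21 had 282, 295 and 302 CPM in untreated 1, 2 and 3, 252, 255 and 270.3 CPM with Dex, 433, 398 and 409 CPM with IL-1B and 321, 345 and 374 CPM with both, with every Dex library below its counterparts within each background. DESeq2 called Il21, at an adjusted p of 0.00115, and edgeR called it without IL-1B 2 and without both libraries high in rRNA-overlapping genes, at 0.0492 and 0.0204. Csf2, which encodes the inflammatory cytokine GM-CSF, had 0.119, 0.255 and 0.957 CPM in untreated 1, 2 and 3, 0, 0.0450 and 0.242 CPM with Dex, 5.13, 7.18 and 5.67 CPM with IL-1B and 1.96, 1.71 and 2.61 CPM with both. The counts without IL-1B were near 0, and with IL-1B the Dex libraries were lower without overlap. The estimate was -1.63 ± 0.41 (adjusted p = 0.0675 in edgeR). It was called by DESeq2 at an adjusted p of 0.000957, by limma-voom at 0.0170, and in edgeR with the replicate number as a block at 0.0481 and without untreated 1 at 0.0378.

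Il2 was at -0.31 ± 0.20, Il22 at 0.01 ± 0.57, Il23r, a receptor that sustains Th17 cells, at 0.02 ± 0.12, and Ccr6, the receptor of Ccl20, at 0.53 ± 0.15, with adjusted p-values of 0.595, 0.997, 0.978 and 0.108 in edgeR. The IL-1 receptor genes Il1r1, which signals, and Il1r2, a decoy, were at -0.36 ± 0.32 and 0.16 ± 0.11 (adjusted p = 0.716 and 0.616 in edgeR). The separate estimates of Il1r1 had opposite signs, -0.91 ± 0.36 without IL-1B and 0.31 ± 0.40 with it. Neither was called, and the sides overlapped within each background. Foxp3, the regulatory T cell factor, was at 1.03 to 1.82 CPM in all libraries, with an estimate of 0.08 ± 0.19 (adjusted p = 0.913 in edgeR). None of these 7 was called in edgeR with all 12 libraries. Ccr6 was called by DESeq2 at an adjusted p of 0.0371, and in edgeR without untreated 1 at 0.0419 and without Dex 2 at 0.0284. The sign of Il22, Il23r and Foxp3 turned under some alternatives. Zbtb16, known as a glucocorticoid target in other tissues, was not tested, with 0 to 5 reads per library and 24 in all.

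Several further lists held no call at this threshold in edgeR. They were 17 TNF and costimulatory receptors, 14 BCL2 family genes, 12 Th1 genes, 15 Treg genes, 25 cell cycle genes, 23 glycolysis and hypoxia genes, 18 ribosome biogenesis genes and 12 heat shock genes. Their medians ran from -0.184 for Th1 genes to 0.184 for Treg genes. Of these 136 list entries, 20 had an unadjusted p under 0.05, DESeq2 called 6 and limma-voom 0. Among all 13821 genes tested, 11.8% had an unadjusted p under 0.05, DESeq2 called 488 and limma-voom 237. Ctla4 and Tnfrsf18 are in both the costimulatory and the Treg list and count in each. Of the 25 cell cycle genes, 20 had negative estimates, while 49.9% of all genes tested had positive ones. The cell cycle median was -0.085, and the SD of that median between replicates was 0.070.

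Markers of Th17 cells and of other cell types gave 0 calls in edgeR among 43 list entries tested. Of these entries 9 had an unadjusted p under 0.05, against 11.8% of all genes tested. DESeq2 called 3 of them, against 488 of all 13821 genes, and limma-voom called 0. Blk is in both the B cell and the gamma-delta T list and counts in each. All 10 Th17 markers listed were detected, with a summed level of 1408 to 1920.2 CPM. Those of B cells summed to 281.5 to 400.0 CPM in the untreated libraries, with the highest in untreated 1. They summed to 251 to 275 CPM with Dex, 267 to 288 CPM with IL-1B and 267 to 285 CPM with both. Without untreated 1 the median of the B cell markers, -0.263 in the full comparison, was -0.032. Myeloid and dendritic cell markers summed to 63.5 to 80.6 CPM, CD8 and NK cell markers to 55.3 to 139 CPM, and gamma-delta T and innate lymphoid markers to 112 to 159 CPM. The highest members of these lists were Cst3 (46.6 to 68.3 CPM), Gzmb (29.5 to 116 CPM) and Id2 (101 to 149 CPM), which made up much of the sums. Cd68, Flt3, Spi1, Cd8a, Cd8b1 and Nkg7 also had reads in every library. Clec9a of dendritic cells and Gzmk of CD8 T cells were at 0 in every library, each the 1 such member of its list. The part of these other cell types in the results was not tested. In these bulk libraries fewer cells of a type and less RNA per cell cannot be told apart.

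Because the pooled effect is a mean, its 2 parts were set side by side. They contrast separate libraries, but both came from a fit to all 12 libraries with a shared estimate of the spread. Their calls are therefore not independent. Dex against untreated gave 74 calls (0.535%) and Dex with IL-1B against IL-1B gave 38 (0.275%). Both are smaller comparisons, of 3 libraries a side. In fits to only the 6 libraries compared, 65 genes were called without IL-1B and 18 with it. Of the 74, 8 were not pooled calls, Il17f among them, and of the 38, 1 was not. All 222 had the same sign of estimate in both backgrounds, against 58.3% of all genes, and a pooled call selects genes whose 2 estimates agree. Of the 74 genes called without IL-1B, 73 (98.6%) had the same sign with it, and of the 38 called with IL-1B, 37 (97.4%) had the same sign without it.

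The difference between the backgrounds was tested itself, and edgeR called 0 genes (0%), with 427 (3.09%) at an unadjusted p under 0.05. limma-voom also called 0, and DESeq2 called 1, Pim2, a survival kinase, named after its value was seen. Its difference, with minus without IL-1B, was 0.71 ± 0.15 on the log2 scale (adjusted p = 0.0185 in DESeq2), and in edgeR its adjusted p was 0.989. Among the 222 pooled calls, 16 had an unadjusted p under 0.05 for the difference, against 3.09% of all genes tested. The smallest adjusted p of these 16 genes in edgeR was 0.989. They included Klf9, at 1.40 without IL-1B and 0.84 with it, Fkbp5, at 1.12 and 0.69, and Ccl20, at -1.47 and -1.10. Pdcd4 lay the other way, at 1.25 without IL-1B and 1.74 with it. The estimate was larger without IL-1B for 93 of the 147 rises and 56 of the 75 falls, and the matching share over all genes was not computed. None of these differences passed the adjusted threshold in edgeR. Both libraries that stood apart, IL-1B 2 and Dex+IL-1B 1, belong to the background with IL-1B, 1 on each side of its Dex comparison.

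**Figure D4:**
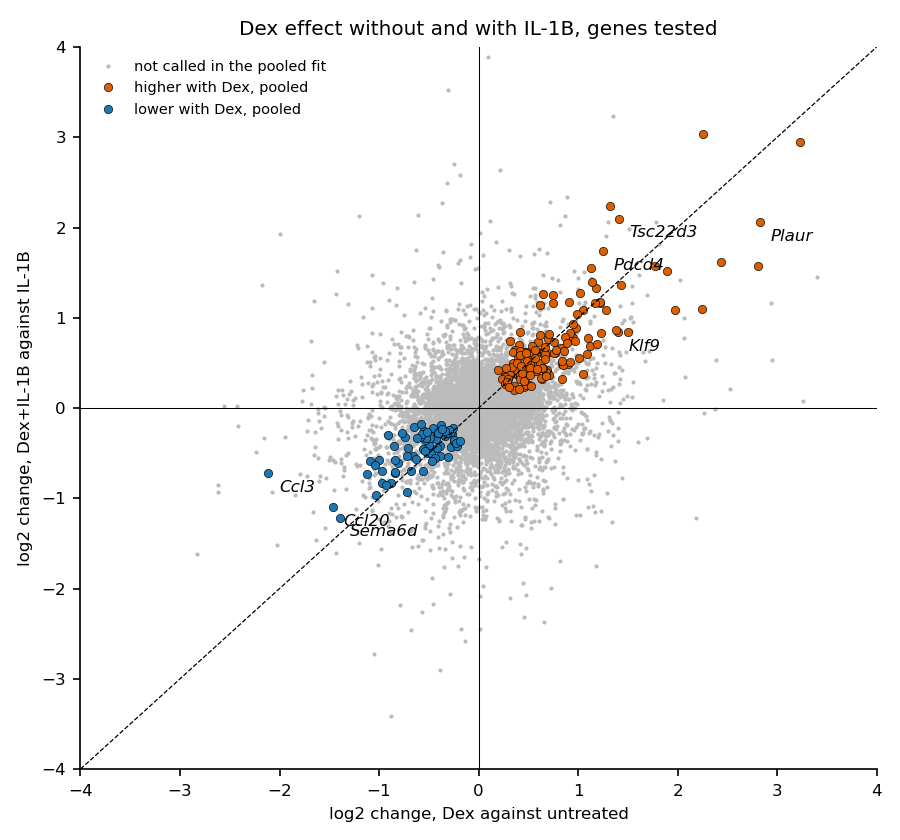
Log2 change with Dex in the absence of IL-1B (horizontal) and in its presence (vertical) for each gene tested, with pooled rises in orange, pooled falls in blue and the line of equal effect dashed; 2 genes fall outside the axes, which end at 4. The pooled calls within the axes lie in the lower left or upper right quadrant, with Klf9 below the dashed line and Pdcd4 above it.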

How the data were processed

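The authors deposited 1 table of raw counts, whole reads per gene that were not normalized, with 12 columns, all of them used. HTSeq 0.6.1, STAR 2.7.0a and DESeq2 are named, without roles, in the submitters' processing notes with mm10 and GRCm38 as builds. Strand and multi-mapping settings are not given in the sources used here. RNA was selected with poly-T beads and amplified by PCR, per the labels' protocols, so intervals from counts would cover counting error only. Of 35275 gene IDs, 34490 matched a GENCODE M21 symbol, and 0 lines named no gene.

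From these counts, edgeR 4.0.16 in R 4.3.3 kept 13821 genes by its filter on group (the rest held 0.0562% of counts) and fitted a robust quasi-likelihood model with TMM scaling. The pooled effect used Dex and IL-1B as additive terms, with 9 residual degrees of freedom, and the 2 separate effects and their difference used 4 group means, with 8. Scripts were tested on simulated data. Named genes were, among calls with at least 5 CPM on the higher side and no overlap within either background, the 12 largest rises, 12 largest falls and 6 smallest p, without clone names, pseudogenes and antigen receptor segments, plus a panel of glucocorticoid and Th17 genes and up to 4 members of each list. Results of some of the named genes are not reported here. Members, lists and panel were chosen with earlier results of these data known, so a list's direction is not independent support. Alternatives used DESeq2 1.42.0, limma 3.58.1 (voom), other scaling, filters and designs, and each library left out in turn.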

Additional observations from a re-analysis of the deposited data

How the results depend on the processing

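Of the 50 named genes called in the pooled comparison, 16 kept the call under every alternative other than the test against a 1.5-fold change, and 18 lost it in at least 1 fit that left out a library. The pooled count of 222 became 237 with limma-voom, 212 with median-ratio factors, 251 with no filter, 213 with a mean of at least 5 CPM and 205 as the mean of both contrasts in the 4-group model. It moved to 488 with DESeq2, 11 against a 1.5-fold change, 54 with no IL-1B covariate (85.2% of them higher, against 66.2%) and 710 without both libraries high in rRNA-overlapping genes; with libraries left out in turn it ran from 119 to 404. Without IL-1B, the count of 74 moved to 271 with DESeq2, 138 with no filter, 7 against a 1.5-fold change and 257 without those 2 libraries, and from 16 to 257 with libraries left out. With IL-1B, the count of 38 moved to 98 with DESeq2, 1 against a 1.5-fold change and 18 in a fit to only its 6 libraries, and from 17 to 46 with libraries left out. DESeq2 called 1 gene for the difference, and the other alternatives 0. The cause of these moves was not tested.

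With the replicate number as a replicate block the pooled count was 194, with 184 shared, and the separate counts were 61 and 31. Samples of the same number did not deviate together (correlations from -0.214 to 0.184), so no pairing by number was seen. Deviations within groups of 3 libraries cannot exclude a shared culture or batch. Of 682 list medians computed under an alternative, 12 moved past the replicate spread. Uncalled estimates changed sign for Il22 from 0.013 to -0.027 with DESeq2, -0.100 with limma-voom, -0.025 with the block, -0.056 in the 4-group model, -0.012 without both rRNA-high libraries and, with libraries left out, to between -0.335 and 0.162. For Il23r, at 0.016, they ran from -0.058 to 0.129 and for Foxp3, at 0.078, from -0.017 to 0.163. Depth limits genes such as Il22 and Foxp3, which were under 2 CPM.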
